A study of Mus musculus with 2 samples.

Results

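*Mef2a*, *Mef2b*, *Mef2c* and *Mef2d*, the genes of the 4 MEF2 transcription factors, and *Hdac4*, *Hdac5*, *Hdac7* and *Hdac9*, the genes of the class IIa histone deacetylases that bind MEF2, were followed in E18.5 mouse cochleae on the 2 deposited Affymetrix MOE430A arrays. Members were chosen by name, and every probe set that the platform annotation pairs with only 1 of these symbols was taken. Of the 8 genes, 7 were measured, out of 12393 genes in all, with 17 of the 22626 probe sets that are not controls. *Hdac4* had no such probe set and was not analysed here.

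The study compared the cochleae of *Igf1*-/- embryos with those of *Igf1*+/+ embryos to find genes that depend on IGF-I. The null allele was made by targeted disruption, the embryos came from heterozygous matings on the C57BL/6J background, and the tissue was the cochlea with its otic capsule and without the vestibule. The labels give 8 cochleae for each array, whereas the study's methods give pools of 2 embryos and 3 pools for each genotype. The labels do not settle which array is which: the source name and description of the -/- titled array are those of the wild type, and those of the +/+ titled array belong to the null. The genotype is therefore not assigned here, and titles name the arrays. Differences are log2 levels of the -/- titled array minus those of the +/+ titled array, with the median over all probe sets subtracted. *Igf1* itself was lower on the -/- titled array with each of its 3 probe sets, at 11.03, 7.37 and 7.23, against 11.42, 8.11 and 7.78 on the +/+ titled array (centred differences −0.42, −0.75 and −0.58). It was well above the lowest levels on both arrays, so it does not settle the labels. There are no replicates, no difference below has an error or a test, and none can be told apart from the difference between 2 pools of embryos.

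A level is a log2 value of 1 probe set, a group of short probes against 1 stretch of transcript, and lies between 0 and 13.64. Probe sets bind with different strength, so levels of different probe sets do not rank genes or tissues by RNA amount. A percentile, or the words bright and dim, place a probe set within the array, and a sum of linear levels over a list serves only to set 1 array against the other. In place of a replicate error, 2 descriptive measures were used. The first, called the range of its level below, is the central 90% of the differences among 1000 probe sets whose mean levels are closest to that of the probe set. The second is the SD of the differences among probe sets of 1 gene, which was 0.10 at levels above 7.68, 0.27 between 5.06 and 7.68 and 1.17 below 5.06. Neither holds the spread between embryos.

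The tissue was checked with marker genes. Of otic capsule cartilage, all 6 markers were above the median level of genes, and *Col2a1*, the main cartilage collagen, had 13.45 on the -/- titled array and 13.42 on the +/+ titled array. The otic mesenchyme gene *Otor* had levels of 12.37 and 12.57. The arrays also differed in markers of tissues other than the cochlea. Skeletal muscle markers were higher on the -/- titled array in 12 of 12 cases, with summed linear levels of 15749 and 9320 on the +/+ titled array. Hindbrain and central glia markers were higher in 7 of 8 cases (2523 and 1809). The summed linear level of 6 lung epithelium markers was 321 on the -/- titled array and 2681 on the +/+ titled array, with all 6 lower. Strial marginal cell markers were also lower in 5 of 5 cases, with a median difference of −1.15 and a summed level of 420 on the -/- titled array and 553 on the +/+ titled array. That median is the value of the dim *Bsnd*, which lay inside the range of its level. The dim *Kcnq1* (−2.42) and *Kcne1* (−3.73) lay below their ranges. Of the markers above the median level, *Esrrb* (−0.60) lay below its range and *Atp1b2* differed by −0.02. Of 6 otic mesenchyme markers, 5 were lower, with a median of −0.31 and a ratio of summed levels of 0.834. The part of such tissue in the differences below was not tested.

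MEF2 factors bind as dimers to a short A/T-rich element in the control regions of genes for muscle contraction, immediate early responses, neuronal activity and cartilage maturation. Class IIa histone deacetylases have little catalytic activity of their own, bind MEF2 and keep its target genes silent through co-repressors. Calcium-dependent kinases and protein kinase D phosphorylate these deacetylases, 14-3-3 proteins then bind them and they leave the nucleus, while p38 and ERK5 phosphorylate MEF2 itself and raise its activity. Much of this control acts on the proteins, and an RNA array does not measure it.

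Some of these genes hold a match to the MEF2 element near their own start. The consensus MEF2 element, a run of 10 bases searched on both strands with a pattern that is its own reverse complement, was looked for in the RefSeq promoter windows of the 8 genes (GRCm38.p6, 250 bases before to 50 bases after each start), and *Hdac4* was included in this search. It was found in 2 of 14 windows (14.3%), 1 of *Mef2a* and 1 of *Hdac5*, against 1047 of 32851 windows of all genes (3.19%). Both windows are shown whole, with the element in capitals, because they are the windows of member genes that hold it. The *Mef2a* window is chr7:67372809-67373108 and that of *Hdac5* is chr11:102230123-102230422, both read from the minus strand.
Mef2a: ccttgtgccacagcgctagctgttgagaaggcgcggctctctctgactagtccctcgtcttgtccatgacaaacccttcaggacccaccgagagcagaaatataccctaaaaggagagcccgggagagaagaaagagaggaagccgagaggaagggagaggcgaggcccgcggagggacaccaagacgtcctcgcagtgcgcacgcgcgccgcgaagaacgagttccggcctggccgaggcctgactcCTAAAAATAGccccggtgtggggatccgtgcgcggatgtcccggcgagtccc
Hdac5: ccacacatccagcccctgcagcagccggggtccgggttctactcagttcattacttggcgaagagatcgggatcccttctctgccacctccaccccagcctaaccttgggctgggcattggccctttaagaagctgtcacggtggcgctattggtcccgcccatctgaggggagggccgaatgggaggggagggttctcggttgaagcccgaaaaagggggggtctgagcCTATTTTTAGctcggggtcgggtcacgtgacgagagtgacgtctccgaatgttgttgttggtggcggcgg
In *Mef2a* the element began at base −2 from the start and in *Hdac5* at base −20, where −1 is the last base before the start. The element of *Mef2a*, CTAAAAATAG, is the other strand of that of *Hdac5*, CTATTTTTAG. This exact element occurred on either strand in 36 of the 32851 windows (0.11%). A match describes the letters in the window and does not show that a factor binds there. The CArG box, the A/T-rich element of the related factor SRF, was in 0 of the 14 member windows and in 1.63% of all windows.

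*Mef2a*, which encodes the factor best known from skeletal and cardiac muscle, had 5 probe sets, 3 of which come from 1 sequence record. The brightest, 1427185_at, had a level of 9.88 on the -/- titled array and 9.98 on the +/+ titled array, a centred difference of −0.12 (range of its level −0.21 to 0.23). Probe set 1452347_at had 9.24 and 9.31 (−0.09), and 1427186_a_at had 8.43 and 8.47 (−0.06). The first of these stood at the 93.3 and 94.0 percentile of all probe sets, and the others were also above the median. The dimmer 1421252_a_at had 7.30 on the -/- titled array and 7.32 on the +/+ titled array (−0.05), and 1425426_a_at was listed at 0 on both arrays. The 4 probe sets above 0 were all slightly lower on the -/- titled array, with a mean difference of −0.08 ± 0.03 (SD over 4 probe sets of the same 2 arrays). None left the range of its level.

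*Mef2b*, known chiefly from B lymphocytes, had a single probe set at a low level, 1421541_a_at, with 3.05 on the -/- titled array and 3.71 on the +/+ titled array. These are the 17.7 and 22.3 percentile. Its centred difference of −0.68 was the largest of all member probe sets, and at that level the range ran from −1.83 to 1.90. A difference of that size was not detectable at this level.

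*Mef2c*, needed in the mouse for heart looping, for blood vessels and for the maturation of growth plate cartilage, had 5 probe sets, all above the median level. Probe set 1421027_a_at had 9.71 on the -/- titled array and 9.88 on the +/+ titled array, a centred difference of −0.18, close to the lower end of its range (−0.21 to 0.23). The other brightest probe set, 1424852_at, had 9.36 and 9.32 (0.02). It did not share the lower value of 1421027_a_at. Probe set 1451506_at had 8.90 and 8.79 (0.09), and 1421028_a_at had 8.78 and 8.70 (0.06). The dimmest, 1451507_at, had 7.94 on the -/- titled array and 7.96 on the +/+ titled array (−0.04). Thus 3 probe sets were higher and 2 lower, and their differences averaged −0.01 with an SD of 0.11. That is close to the 0.10 found between probe sets of 1 gene at levels above 7.68, where all 5 lay. Of the 5, 1424852_at, 1451506_at and 1451507_at come from 1 sequence record and spanned −0.04 to 0.09.

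*Mef2d*, expressed in many tissues and in neurons, had 2 probe sets that went opposite ways. The brighter, 1434487_at, had 8.79 on the -/- titled array and 8.72 on the +/+ titled array (0.05), and 1421388_at had 6.14 and 6.26 (−0.14). The ranges of their levels were −0.25 to 0.26 and −0.49 to 0.57, so both lay inside.

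Among the deacetylases, *Hdac5*, which represses growth genes in the heart and leaves the nucleus of neurons on calcium entry, had 1 probe set. It had a level of 8.16 on the -/- titled array and 8.01 on the +/+ titled array, a centred difference of 0.13 or 1.09-fold, inside its range of −0.27 to 0.28.

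*Hdac7*, known from endothelium and thymocytes, had 2 probe sets of 1 sequence record. Probe set 1420813_at had 8.04 on the -/- titled array and 7.72 on the +/+ titled array, 1.23-fold higher after centring, and its difference of 0.30 lay just under the upper end of its range, 0.31. It was the largest difference of any member probe set above the median level. The other, 1420812_at, had 6.78 and 6.92, a difference of −0.16 within −0.38 to 0.47. Since both were designed on the same record and differed in sign, *Hdac7* had no direction that its probe sets shared.

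*Hdac9*, whose short form lacks the catalytic domain and represses MEF2 in muscle, was measured by 1421306_a_at with 2.18 on the -/- titled array and 2.12 on the +/+ titled array. Both are near the 13.4 to 13.6 percentile. The difference was 0.04, in a range from −2.51 to 2.68, so differences inside that wide range were not detectable with this probe set.

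**Figure D1:**
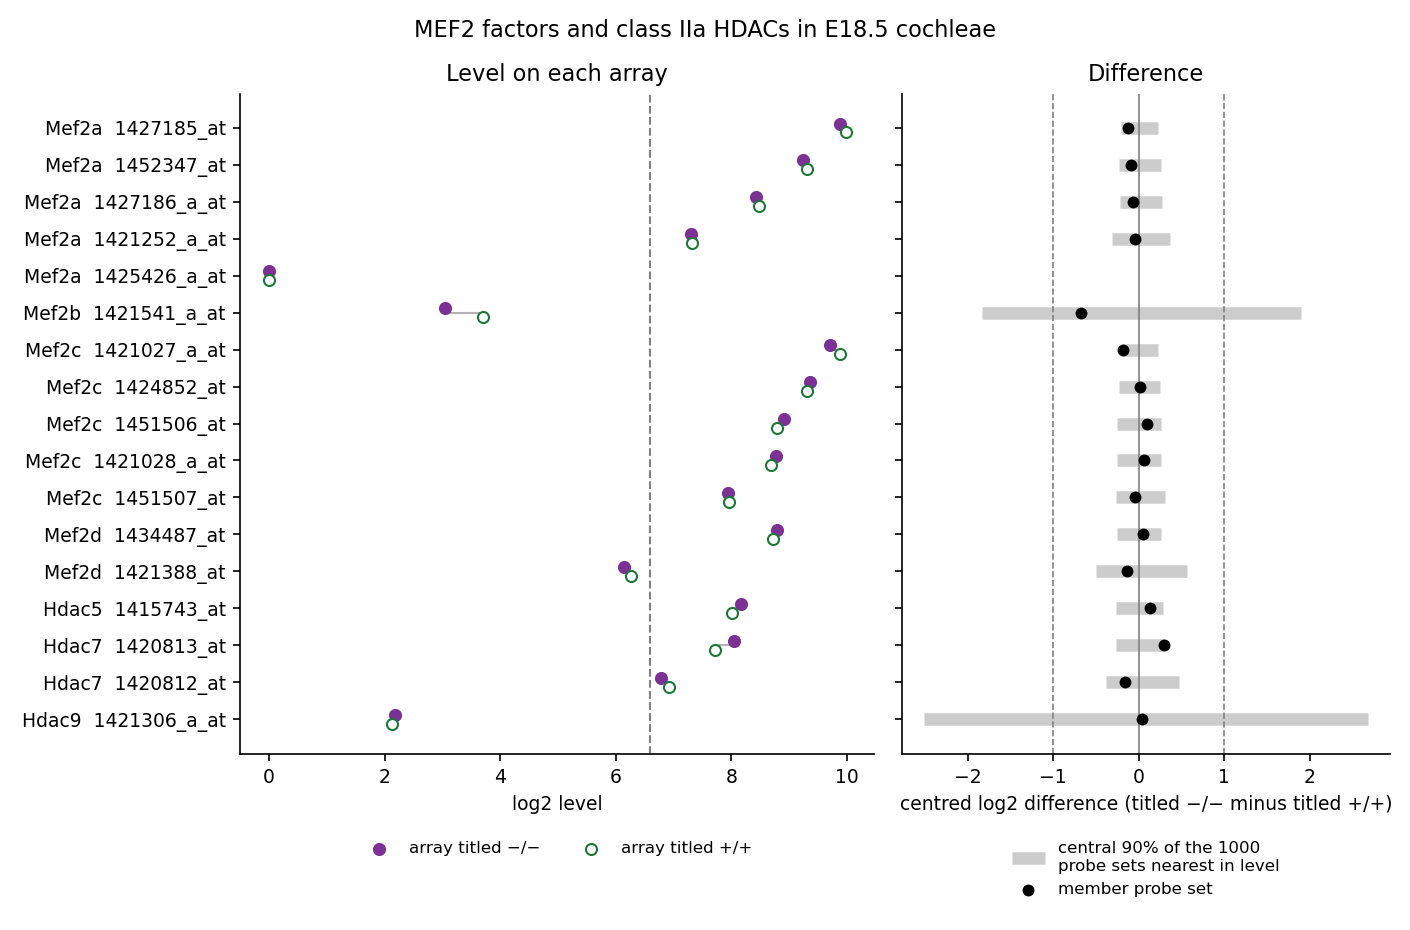
Left, log2 level of the 17 member probe sets (rows) on the -/- titled array (filled) and the +/+ titled array (open), with the median of all probe sets dashed at 6.60; right, the centred log2 difference of each probe set above 0 (black), with the central 90% of the 1000 probe sets nearest in level in grey and sizes of 1 dashed. The points of a pair lie farthest apart for *Mef2b*, then for *Hdac7* 1420813_at, and all 16 black points lie on their grey bars.

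None of the 17 member probe sets differed by more than 1 on the log2 scale, which is 2-fold. Over the whole array 11.3% of probe sets did (2558 of 22626). Most of those are dim: of the 11313 probe sets above the median level of 6.60, only 43 exceeded that size (0.38%), and 13 member probe sets are among those bright ones. A count of 0 in 13 lies near that share and is no result about the members. Of the 16 member probe sets above 0, 7 had higher and 9 had lower levels on the -/- titled array. MEF2 genes accounted for 4 higher and 8 lower, and deacetylase genes for 3 higher and 1 lower. Above the median level, member probe sets had a median size of 0.09 and a largest size of 0.30, against a median of 0.10 over all probe sets there. Taking each gene by its probe set of the highest mean level, the median difference was −0.15 over the 4 MEF2 genes and 0.13 over the 3 deacetylase genes. From gene-wise averages instead, these medians were −0.06 and 0.07, and with only levels above the median they were −0.12 and 0.21. The dim *Mef2b* (−0.68) is 1 of the 4 MEF2 genes in the first median.

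Probe sets of the same gene often went opposite ways at these sizes. Of the 4 members with several probe sets above 0, *Mef2c*, *Mef2d* and *Hdac7* had both signs (3 of 4, 75%), and *Mef2a* did not. Among all 4823 genes with several such probe sets, 2568 had both signs (53.2%). Above the median level it was 2 of 3 members and 1000 of 2293 genes (43.6%).

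**Figure D2:**
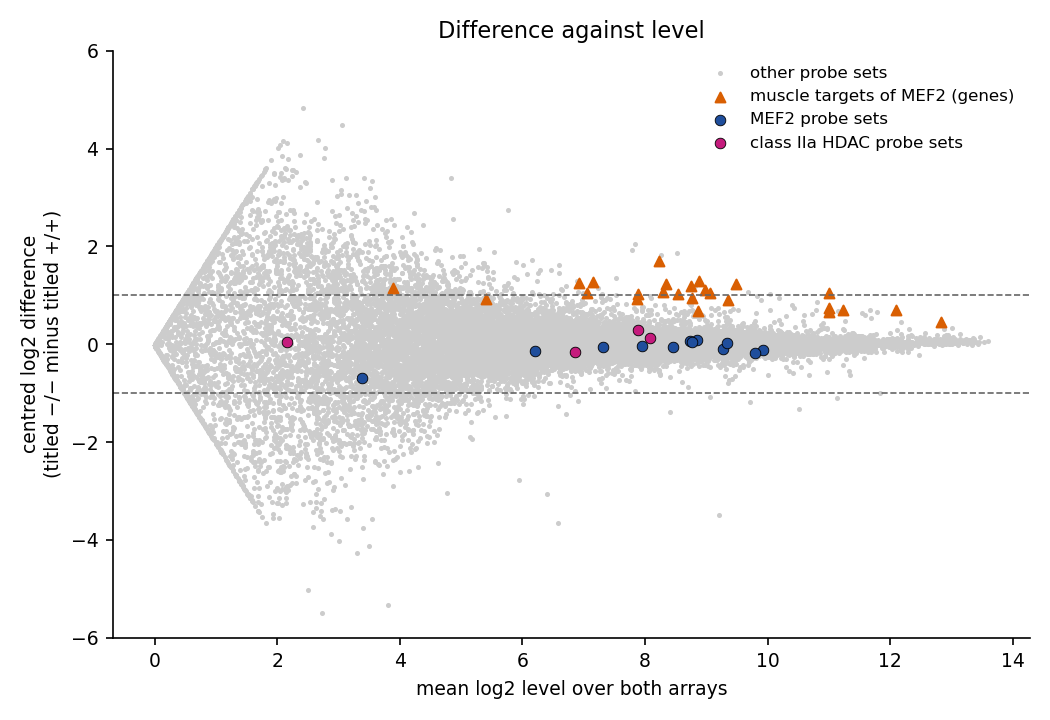
Centred log2 difference (titled -/- minus titled +/+) against the mean of both log2 levels for all probe sets (grey), MEF2 probe sets (blue), class IIa deacetylase probe sets (pink) and the 25 muscle genes known as MEF2 targets, 1 probe set each (orange triangles); dashed lines mark a size of 1. Member probe sets above the median level lie within 0.30 of 0, and the muscle genes lie between 0.45 and 1.71.

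The genes that carry signals to MEF2 and to these deacetylases were next. Over 53 measured genes of calcium signalling, the deacetylase kinases, the MAP kinases and the proteins that modify or cleave MEF2, 0 exceeded a size of 1, where 5.54% of all genes were above 1 and 4.07% below −1. Of these 53, 40 had levels above the median of probe sets, where 0.38% exceed that size, so the count lies near the share at such levels. Of the 53, 4 lay outside the range of their level, which by construction leaves out 10% of probe sets, so this count is no result about these genes either. All 4 were higher on the -/- titled array. These were *Rcan2*, an inhibitor of calcineurin, with 8.06 on the -/- titled array and 7.64 on the +/+ titled array (0.40), and *Prkaca*, the catalytic subunit of protein kinase A, with 9.34 and 9.05 (0.27). *Mapk13*, a p38 kinase, had 6.80 on the -/- titled array and 6.24 on the +/+ titled array (0.54). *Cdk5r1*, the activator of the CDK5 kinase that marks MEF2 for cleavage in neurons, had 8.42 and 7.78 (0.62).

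Calcium, calmodulin and calcineurin genes numbered 19 measured of 25, of which 12 were higher and 6 lower, with *Camk2a* listed at 0 on both arrays, and their median difference was 0.10. The catalytic calcineurin subunit *Ppp3ca* differed by 0.19, the regulatory subunit *Ppp3r1* by 0.13 and *Nfatc4*, a transcription factor that calcineurin activates, by −0.05. Of 20 kinase genes that act on class IIa deacetylases, 16 were measured, 8 of them higher and 8 lower, with a median of 0.02. The other protein kinase A subunit gene *Prkacb* differed by 0.12 and *Prkd3*, of the protein kinase D family, by 0.05. Of 11 MAP kinase genes, 6 were higher and 5 lower, with a median of 0.02. *Mapk14*, which encodes p38 alpha, had 8.91 on the -/- titled array and 8.82 on the +/+ titled array (0.08), its activating kinase *Map2k3* differed by −0.09 and *Map3k3*, a kinase above ERK5, by −0.02. The 11 genes for the modification and proteolysis of MEF2 and the deacetylases had a median of 0.05, with the modifier gene *Sumo3* at 0.09, *Senp3*, which removes SUMO, at 0.05 and the calpain gene *Capn2* at −0.05.

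Partners of the deacetylases were measured as well. All 7 genes of 14-3-3 proteins were measured, 6 of them higher and 1 lower, with a median of 0.06, and *Ywhae* had 12.15 on the -/- titled array and 12.09 on the +/+ titled array (0.04). Co-repressors had 6 genes higher and 5 lower with a median of 0.01 and a range from −0.19 to 0.09. In this group *Ctbp1*, which binds the short form of HDAC9, differed by 0.02, *Cbx5*, heterochromatin protein HP1 alpha, by 0.09 and *Xpo1*, the nuclear export receptor, by 0.05. The 10 other histone deacetylases measured were 3 higher and 7 lower, between −0.17 and 0.17, with *Hdac1* at 0.04, *Hdac2* at −0.07 and *Hdac3* at −0.03.

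Co-activators and DNA-binding partners spread more widely: 9 of 23 measured genes were higher and 14 lower, with a median of −0.13. *Tcf4*, *Carm1* and *Kat2b*, the brightest, differed by 0.14, −0.11 and −0.14. *Myog*, the muscle differentiation factor that acts with MEF2, had 7.59 on the -/- titled array and 6.52 on the +/+ titled array (1.05). It was the 1 gene above the median level that exceeded a size of 1 among 73 such signalling, partner and deacetylase genes. At such levels 0.38% of probe sets exceed that size. *Myog* is also 1 of the 25 muscle targets below, so it is counted in both lists. The other muscle regulators of its family were dim, with *Myf6* at 0.69, *Myod1* at −0.13 and *Myf5* at −0.14. The remaining differences beyond 1 came from dim probe sets as well. Of these, *Gata4* (2.14), *Tead1* (−2.13) and *Hand1* (−1.13) lay outside the range of their level, and *Myocd* (−1.28) lay inside it. *Gata4* had 4.69 on the -/- titled array and 2.53 on the +/+ titled array, *Tead1* had 3.21 and 5.32, *Hand1* had 4.32 and 5.43, and *Myocd* had 3.15 and 4.41.

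Known MEF2 targets of striated muscle all differed in 1 direction, as did some marker lists. Skeletal muscle markers were all higher on the -/- titled array. Lung epithelium, strial marginal cell and macrophage markers were all lower. All 25 muscle targets were measured and all 25 were higher on the -/- titled array. Of these, 15 differed by more than 1 (60%, where 5.54% of all genes were above 1), and 0 were below −1 (4.07% of all genes). Of the 23 with levels above the median of probe sets, 14 exceeded a size of 1, where 0.38% of probe sets there did. Their median difference was 1.05, between 0.45 and 1.71, against a median of 0 over all probe sets, and 24 of 25 lay above the range of their level, the exception being the dim *Mb*. Their summed linear level was 34953 on the -/- titled array and 20388 on the +/+ titled array, a ratio of 1.71.

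The probe sets with the highest levels came first. The skeletal alpha-actin gene *Acta1* had 13.06 on the -/- titled array and 12.58 on the +/+ titled array (0.45), and the cardiac alpha-actin gene *Actc1*, also used by fetal skeletal muscle, had 12.45 and 11.73 (0.69). *Ckm*, muscle creatine kinase, had 11.59 on the -/- titled array and 10.86 on the +/+ titled array (0.70). These 3 differences lay below the median of the list. Among myosins, *Myh7*, the slow heavy chain, had 9.10 on the -/- titled array and 7.37 on the +/+ titled array, the largest difference at 1.71. *Myh3*, the embryonic heavy chain, had 11.54 and 10.46 (1.05), and *Myl2*, the slow regulatory light chain, had 7.80 and 6.51 (1.27). Slow-type troponins were also among those above 1, with *Tnnc1* at 9.54 on the -/- titled array and 8.22 on the +/+ titled array (1.29), *Tnni1* at 9.37 and 8.14 (1.20) and *Tnnt1* at 9.54 and 8.40 (1.11). Sarcomere structure genes past 1 were *Ldb3* (1.22), *Myom2* (1.25), *Myom1* (1.03), *Myoz2* (1.03), *Csrp3* (1.06) and the intermediate filament gene *Des* (1.06). *Casq2*, which stores calcium in the sarcoplasmic reticulum, had 10.12 on the -/- titled array and 8.86 on the +/+ titled array (1.24).

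**Figure D3:**
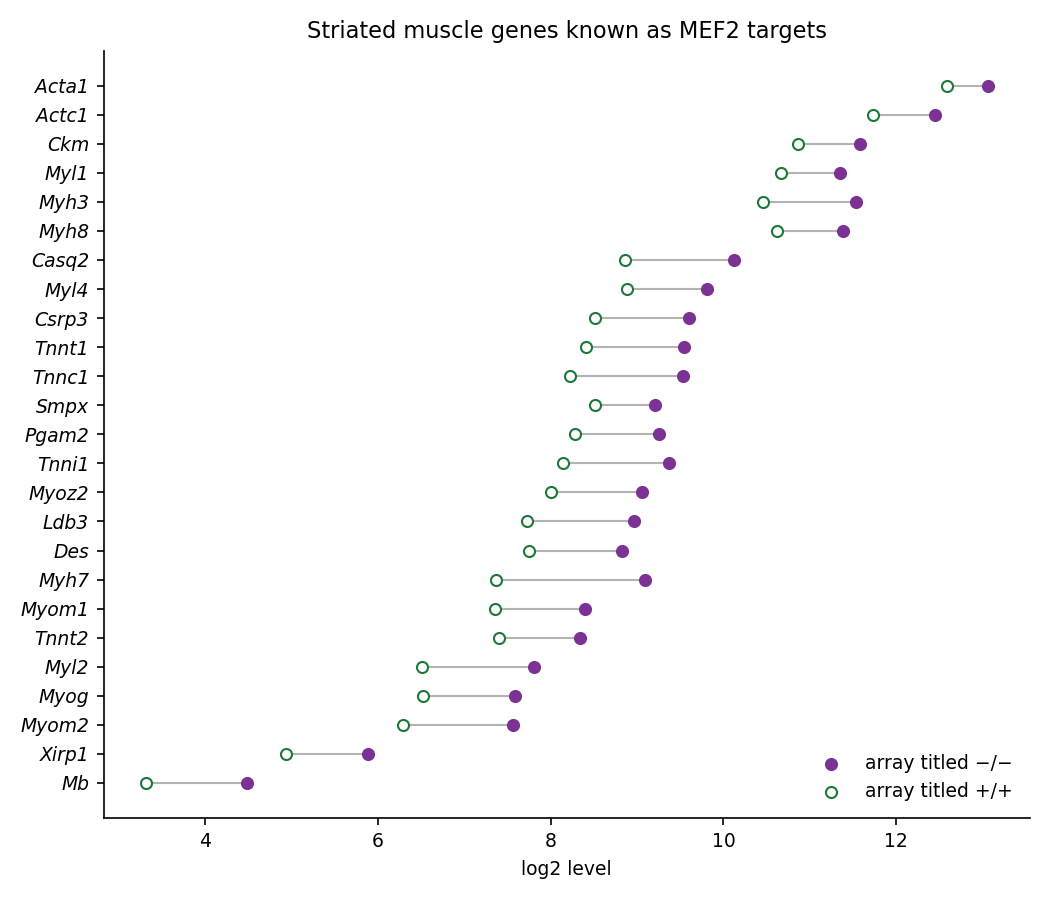
Log2 level of 25 striated muscle genes known as MEF2 targets (rows) on the -/- titled array (filled) and the +/+ titled array (open), in the order of the mean level. The filled point lies to the right of the open point in all 25 rows.

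Skeletal muscle genes outside that list differed the same way. Of 12 measured markers of 14, with 0 genes in both lists, all 12 were higher on the -/- titled array, 2 by more than 1 (*Actn2* 1.07 and *Ryr1* 1.03), and 9 lay above the range of their level. Their median was 0.76, between 0.04 and 1.07, none was at 0, and their summed linear level was 15749 on the -/- titled array and 9320 on the +/+ titled array, a ratio of 1.69. The defining genes *Mylpf*, *Ttn* and *Tnni2* had 12.12, 11.24 and 11.14 on the -/- titled array and 11.44, 10.36 and 10.43 on the +/+ titled array. The part of the amount of muscle tissue in the MEF2 target result was not tested. In bulk tissue fewer muscle cells and less muscle RNA per cell, here on the +/+ titled array, cannot be told apart. Cardiac muscle markers, all below the median level of genes, had 6 of 9 higher and a summed level of 273 on the -/- titled array and 169 on the +/+ titled array. The brightest, *Myl3*, had 6.86 and 5.83 (1.01). The lower ones were *Pln* (−0.36), *Myh6* (−1.06) and *Myl7* (−3.42), the last below the range of its level, so the list was split.

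Against these, *Mef2a*, *Mef2c* and *Mef2d*, the MEF2 genes of muscle, differed by at most 0.18 with any probe set above 0, *Hdac5* by 0.13 and the 2 probe sets of *Hdac7* by 0.30 and −0.16.

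The consensus MEF2 element stood in the promoter windows of 4 of 23 muscle target genes with a window (4 of 31 windows, 12.9%, against 3.19% of all windows). The stretches around it are shown because these are the target genes above that hold the element in the window, with the element in capitals, for *Casq2* (chr3:102086321-102086380, plus strand), *Myoz2* (chr3:123034986-123035045, minus strand), *Pgam2* (chr11:5803842-5803901, minus strand) and *Myh8* (chr11:67277000-67277059, plus strand).
Casq2: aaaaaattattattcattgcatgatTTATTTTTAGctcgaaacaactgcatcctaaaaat
Myoz2: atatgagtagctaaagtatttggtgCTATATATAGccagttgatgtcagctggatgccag
Pgam2: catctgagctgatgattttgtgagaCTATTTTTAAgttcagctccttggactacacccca
Myh8: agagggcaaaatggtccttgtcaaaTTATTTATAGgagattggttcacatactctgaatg
Their elements began at base −69, −33, −80 and −99 from the start. *Myoz2*, a calcineurin-binding protein of the sarcomere, had 9.06 on the -/- titled array and 8.01 on the +/+ titled array (1.03). *Pgam2*, a glycolytic enzyme of muscle, had 9.25 and 8.28 (0.95), and *Myh8*, the perinatal myosin heavy chain, had 11.38 and 10.62 (0.74). Genes with the element differed by 0.74 to 1.24. They are part of the list, so they lie within its 0.45 to 1.71 by construction. The CArG box was in 5 of the 31 windows (16.1%, against 1.63% of all windows), of 4 genes. Overlapping windows of *Ldb3* hold the same box.

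MEF2 targets that calcium entry or growth factors induce were mostly lower on the -/- titled array. Of 15 measured, 10 were lower and 4 higher, with *Arc* listed at 0 on both, and the median was −0.22. Immediate early genes were the lowest: *Fos* had 7.73 on the -/- titled array and 9.09 on the +/+ titled array (−1.38), *Egr1* had 8.53 and 9.58 (−1.07), and the nuclear receptor gene *Nr4a1* had 8.28 and 9.13 (−0.87). *Klf4* had 9.39 on the -/- titled array and 9.80 on the +/+ titled array (−0.43) and *Klf2* had 9.26 and 9.41 (−0.17). With the potassium channel gene *Kcna1* (−0.73), *Fos*, *Egr1*, *Nr4a1* and *Klf4* were the 5 of 15 below the range of their level. By construction 5% of probe sets lie below it. *Fos* and *Egr1* were the 2 of 15 below −1, where 4.07% of all genes were, and 2 of 15 were above 1, where 5.54% of all genes were. The 2 above a size of 1 in the other direction were dim: *Egr3* had 5.13 on the -/- titled array and 3.86 on the +/+ titled array (1.25), just above its range, and *Nr4a3* had 2.54 and 0.20 (2.31), inside it.

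The element stood in 3 of 18 windows of this list (16.7%, against 3.19% of all windows), and only 11 genes of the list had a window. The windows with it were those of *Jun* (chr4:95052221-95052280, minus strand), *Klf2* (chr8:72318919-72318978, plus strand) and *Nr4a2* (chr2:57124136-57124195, minus strand). They are shown for comparison with the *Hdac5* window, since *Jun* holds the same 10 bases.
Jun: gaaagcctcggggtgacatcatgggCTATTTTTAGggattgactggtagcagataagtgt
Klf2: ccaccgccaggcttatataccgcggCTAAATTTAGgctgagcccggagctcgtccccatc
Nr4a2: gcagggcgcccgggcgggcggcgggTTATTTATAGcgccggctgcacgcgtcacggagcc
Their elements began at base −33, −118 and −167. *Jun* had 8.49 on the -/- titled array and 8.69 on the +/+ titled array (−0.22), and *Nr4a2* had 6.50 and 6.72 (−0.24). Along with *Klf2* these lay inside the range of their level.

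Targets of MEF2C in cartilage and bone were divided. Of 12 measured genes of 15, 6 had higher and 6 had lower levels on the -/- titled array, none exceeded a size of 1, and the median was −0.01. The hypertrophic cartilage collagen *Col10a1* had 8.56 on the -/- titled array and 7.75 on the +/+ titled array (0.80), the bone sialoprotein gene *Ibsp* had 10.36 and 9.43 (0.91), and the collagenase gene *Mmp13* had 7.81 and 6.88 (0.91). These were the 3 of 12 above the range of their level, which by construction leaves 5% of probe sets below it and as many above it. *Ihh*, the signal of prehypertrophic chondrocytes, had 6.66 on the -/- titled array and 7.54 on the +/+ titled array (−0.91), and *Dlx5* (−0.33) and *Phex* (−0.36) were also below their range. *Alpl*, the alkaline phosphatase gene, had 8.36 on the -/- titled array and 8.42 on the +/+ titled array (−0.08). The summed level of the otic capsule cartilage markers had a ratio of 1.05, titled -/- over titled +/+. The element was in 0 of 15 windows of this list.

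**Figure D4:**
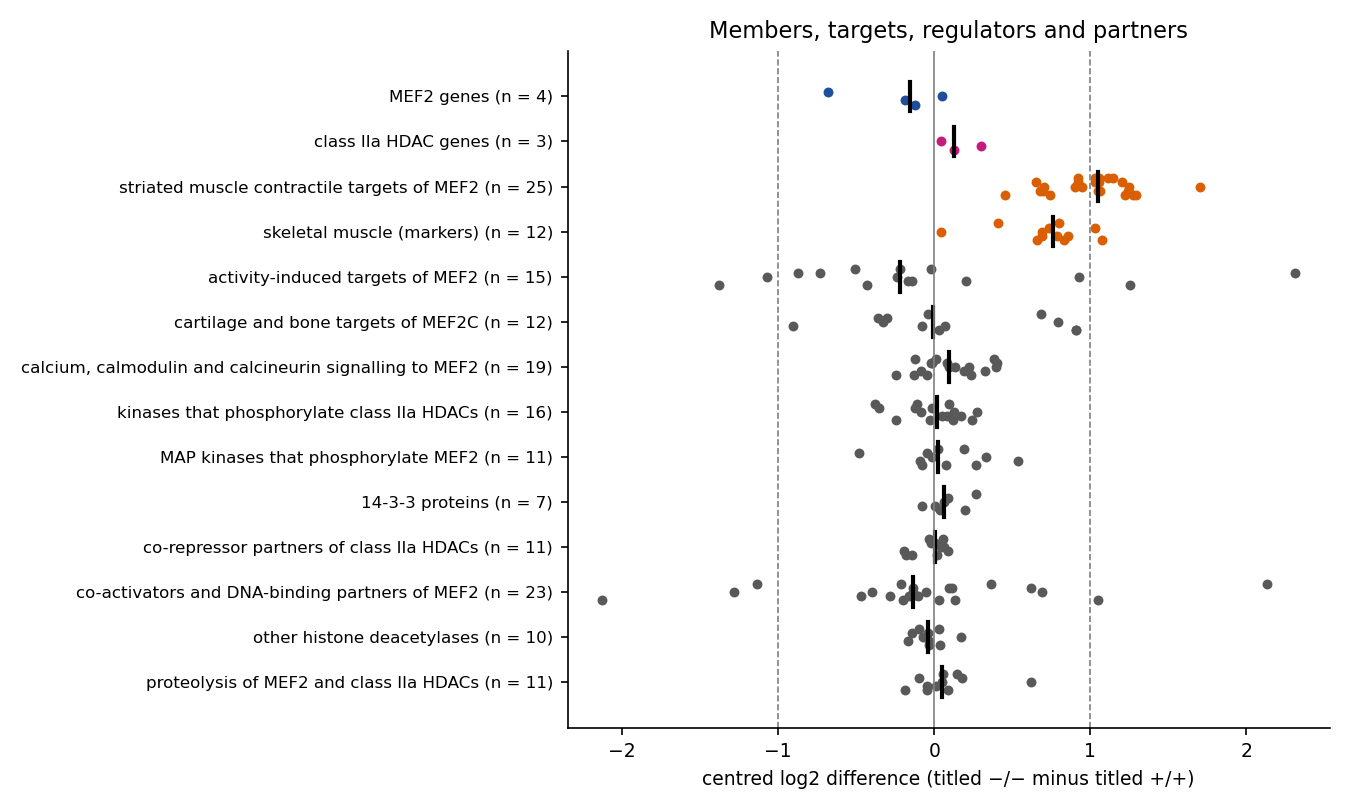
Centred log2 difference (titled -/- minus titled +/+) of each measured gene, 1 probe set each, in the member families, target lists, skeletal muscle markers, regulators and partners (rows, n in brackets), with a black bar at each median and dashed lines at a size of 1. Only the muscle target and skeletal muscle rows lie wholly to the right of 0 among the rows of over 3 genes.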

How the data were processed

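Each of the 2 arrays held cRNA of E18.5 cochleae. The authors hybridised biotin-labelled cRNA. MAS5 and RMA (first analysis) and the multi-mgMOS method of PUMA (levels) are named in the methods without versions, and the software behind these values is not stated there. Per probe set, the authors deposited a log2 level. The base was inferred: the highest value, 13.64, is under 16, which is the most that a 16-bit scan can give as a log2 value. Scaling between arrays is not stated. Values listed at 0 may be failed estimates.

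Of 22690 probe sets, 64 were controls. In the platform annotation, 20380 of the rest have 1 symbol, 691 have several and 1555 have none, and 20351 matched the RefSeq gene table (GRCm38.p6). Probe sets with several symbols were not used. Of a gene with several, that of the highest mean level stood for it in the lists. The median difference, 0.02, was subtracted. No test was made, and precision is limited by the number of arrays, 1 per title. Python 3.11.15, pandas 2.3.3 and numpy 2.4.6 were used, and the scripts were tested on simulated data.

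The members and 11 gene lists were chosen with earlier results of these data known. Named genes are all member probe sets, the 3 genes of the highest mean level in a list, list genes above the median level with a size above 1, and *Igf1*. Other genes named were chosen after their values were seen, as were the promoter windows shown. Alternatives were no centring, quantile and loess normalization, raised low values, a level filter, other size limits, the mean over probe sets of a gene and fewer probe set types. Other arrays of the study were not used here.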

Additional observations from a re-analysis of the deposited data

How the results depend on the processing

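No paired analysis was possible because there is 1 array per title. Of 35 values of the main results under an alternative, 3 moved beyond the limits used here (a count by more than 1.5 times, a median by 0.10 or more), and none changed sign. With a size limit of 0.5 in place of 1, 1 member probe set, that of *Mef2b*, passed, against 0. Raising low values to the level of the 25th percentile gave a median of −0.049 for the MEF2 genes, against −0.15, and the difference of *Mef2b* was 0. With the mean over the probe sets of a gene, the median of the muscle targets was 0.95, against 1.05. The medians of both member families are small, so shifts under 0.10 still changed them by more than 1.5 times: with the same mean the MEF2 median was −0.058 and that of the deacetylases 0.067, against 0.13, and with only levels above the median the deacetylase median was 0.21. The 13 member probe sets above the median level changed by at most 0.03 under any alternative, and their largest size was 0.32. The dim *Mef2b* and *Hdac9* probe sets limit what can be read for these genes, and the contradicting labels limit every direction.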

Other observations

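Markers of endothelium, auditory neurons, macrophages and hair cells had ratios of summed levels, -/- titled array over +/+ titled array, between 0.957 and 1.04, against 1.69 for skeletal muscle, 0.834 for otic mesenchyme and 0.760 for strial marginal cell markers. Endothelium, a site of HDAC7 and MEF2C in the mouse, had 5 of 6 markers higher on the -/- titled array, with a median difference of 0.16. Its ratio of summed levels was 1.04, and *Kdr* had 8.35 on the -/- titled array and 8.29 on the +/+ titled array. The endothelial markers were divided too: the brightest, *Emcn* (−0.29), lay below the range of its level and *Pecam1* (0.60) above it. Auditory neurons had 3 of 9 markers higher and 6 lower, a median of −0.10 and a ratio of 1.03. *Nefl* had 10.49 on the -/- titled array and 10.65 on the +/+ titled array. The markers did not move together: *Neurod1* (1.88), *Tubb3* (0.67) and *Mapt* (0.38) lay above the range of their level and *Gata3* (−0.48) below it. Macrophage markers were lower in 6 of 6 cases, with a median of −0.07 and a ratio of 0.957. Hair cell markers had a median of −0.08 and a ratio of 0.961. Markers of the hindbrain and central glia were higher in 7 of 8 cases, with a median of 0.49 and summed levels of 2523 on the -/- titled array and 1809 on the +/+ titled array. The part of these cell types in the differences of the members was not tested.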
